A study of Mus musculus with 28 samples.

Results

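The 10 genes described here encode the pore-forming subunits of the AMPA-type glutamate receptor (Gria1, Gria2, Gria3 and Gria4) and 6 of its auxiliary proteins (Cacng2, Cacng3, Cacng8, Cnih2, Cnih3 and Shisa9). They were chosen by name, as a receptor and its partners, and all 10 were found by symbol among the 50686 genes of the count table. All 10 also passed the filter on low counts that left 16735 genes for testing. The tissue was dorsal hippocampus, dissected from male C57Bl6 mice, and each library is a bulk sample, so that fewer cells of a type and less RNA per cell cannot be told apart. Mice of 5 groups went through auditory fear conditioning, a task that pairs a tone with a shock. Of these, the Cort group (n = 5) received Cort, the usual short name of corticosterone, which is the main glucocorticoid of rodents. The RU486 group (n = 5) received RU486, an antagonist of the glucocorticoid receptor also known as mifepristone. The C108 group (n = 5) and the C118 group (n = 5) received ligands of that receptor known here only by these code names. The Vehicle group (n = 4) was conditioned and received vehicle, and the Basal group (n = 4) had neither conditioning nor treatment. Sources used here give no doses, no age of the mice and no time between treatment and dissection. The labels do not say whether each library came from a separate mouse, so p-values measure the spread between these libraries.

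AMPA receptors are tetramers of GluA subunits that carry most fast excitatory transmission in the hippocampus, and their number and composition at the synapse set its strength. GluA1, the product of Gria1, is delivered to synapses during long-term potentiation, and GluA2, the product of Gria2, keeps calcium from passing through the channel. Transmembrane AMPA receptor regulatory proteins (TARPs), cornichons and Shisa proteins bind the receptor, carry it to the surface and change how fast it opens, closes and desensitises. Glucocorticoids are known to change AMPA receptor trafficking in hippocampal neurons.

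Gene counts summed to between 16.2 M and 20.3 M per library (M, 1e+06), and every group reached at least 19.1 M in its deepest library. Levels are in CPM, which are counts per 1e+06 counts of a library after TMM normalization (trimmed mean of M values). Markers of CA1 and CA3 pyramidal cells and of dentate gyrus were present in all 6 groups, with none of them at 0 in a group. Marker scores are the mean log2 CPM of a list after centring each gene on all 28 libraries. Vehicle 16 and Vehicle 29 (sample numbers from the labels) stood apart, and results that rest on them are given with and without both. Vehicle 16 had a thalamus score of 2.18 and a CA1 score of −0.77. Vehicle 29 had a dentate gyrus score of −0.57 and an interneuron score of 0.30. Libraries of other groups lay far out for other markers. Astrocyte scores were −0.609 in C118 38, −0.555 in C108 39 and −0.405 in Cort 36. Choroid plexus scores were 4.14 in RU486 6 and 3.20 in RU486 25.

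The sequence upstream of Gria4 is shown because it passed a test below, and that of Cnih2 because it is the member whose window holds the core of a glucocorticoid response element. RefSeq promoter windows (GRCm38.p6, 250 bases before to 50 after the start site) were used for 6 of the 10 members. Capitals mark matches to any of 5 motifs searched on both strands, and each sequence runs 5′ to 3′ on the gene's own strand. The Gria4 window lies at chr9:4796185-4796484 on the minus strand. The Cnih2 window lies at chr19:5098472-5098771 on the minus strand.
Gria4: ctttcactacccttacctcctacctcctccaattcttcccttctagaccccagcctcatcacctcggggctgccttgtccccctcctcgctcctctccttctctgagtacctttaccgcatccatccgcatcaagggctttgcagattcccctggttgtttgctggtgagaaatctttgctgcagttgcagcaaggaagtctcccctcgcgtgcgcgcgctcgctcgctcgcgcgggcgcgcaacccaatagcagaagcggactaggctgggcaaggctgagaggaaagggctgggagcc
Cnih2: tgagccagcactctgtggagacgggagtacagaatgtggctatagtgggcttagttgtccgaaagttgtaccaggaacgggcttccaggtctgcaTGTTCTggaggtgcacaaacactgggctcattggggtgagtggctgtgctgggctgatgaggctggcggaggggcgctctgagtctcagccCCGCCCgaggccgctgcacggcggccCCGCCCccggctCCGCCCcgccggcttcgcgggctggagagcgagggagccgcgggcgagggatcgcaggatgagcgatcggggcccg

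The full glucocorticoid response element was searched as AGAACA and TGTTCT with 3 bases of any kind between them, and it occurred in 0 of these 6 windows, against 0.00913% of 32851 RefSeq windows of the same length. Its 6-base core TGTTCT, which also lies inside the full element, occurred in 1 of the 6, that of Cnih2, at positions −155 to −150 from the start site. The same core was present in 6233 of all 32851 windows. The Sp1 box GGGCGG, read as CCGCCC on the other strand, occurred 3 times in the Cnih2 window and once in that of Cnih3, and 35.7% of all windows held it. The cyclic AMP response element TGACGTCA (1.79% of all windows) and the Egr box GCGTGGGCG (0.612% of all windows) occurred in none of the 6 windows. These matches describe letters in the windows and are not sites of binding.

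Per kilobase of exon, Cnih2 and Gria1 were the most abundant members in dorsal hippocampus and Gria4 the least. Gria1 (chr11:57011387-57330244) averaged 225 ± 27.4 CPM per kb (SD, n = 28), and Gria2 (chr3:80681450-80802835), the subunit that limits calcium entry, averaged 57.8 ± 5.07. Gria3 (chrX:41400854-41678601), a subunit that pairs with GluA2, averaged 28.5 ± 1.77 CPM per kb. Gria4 (chr9:4417896-4796234), the subunit best known from interneurons, thalamus and early development, averaged 9.60 ± 1.46 CPM per kb. These positions are those of GENCODE M21 on GRCm38, each over the whole gene with its introns.

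Among the auxiliary proteins, the cornichon Cnih2 (chr19:5092868-5098521) averaged 326 ± 45.5 CPM per kb (SD, n = 28), above Gria1 in 28 of 28 libraries. The TARP Cacng8, which encodes gamma-8, the TARP most typical of hippocampus, averaged 44.4 ± 8.86 CPM per kb (chr7:3390683-3415648). Cnih3 (chr1:181352628-181460641) followed with 23.5 ± 2.59 CPM per kb. Cacng3, Cacng2 and Shisa9 were lower than these. Cacng3 (chr7:122670492-122769393) had 17.8 ± 2.79 CPM per kb, Cacng2 (chr15:77991748-78120028), which encodes stargazin, had 11.1 ± 0.92, and Shisa9 (chr16:11984113-12270902), which encodes CKAMP44, had 10.1 ± 1.47. Neighbours in this order kept their order in 24 or more of 28 libraries, except Shisa9 and Gria4, where Shisa9 was higher in 17 of 28. Dividing by the longest transcript instead left the order of the upper 7 members as it was and put Cacng2 last, below Gria4.

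**Figure D1:**
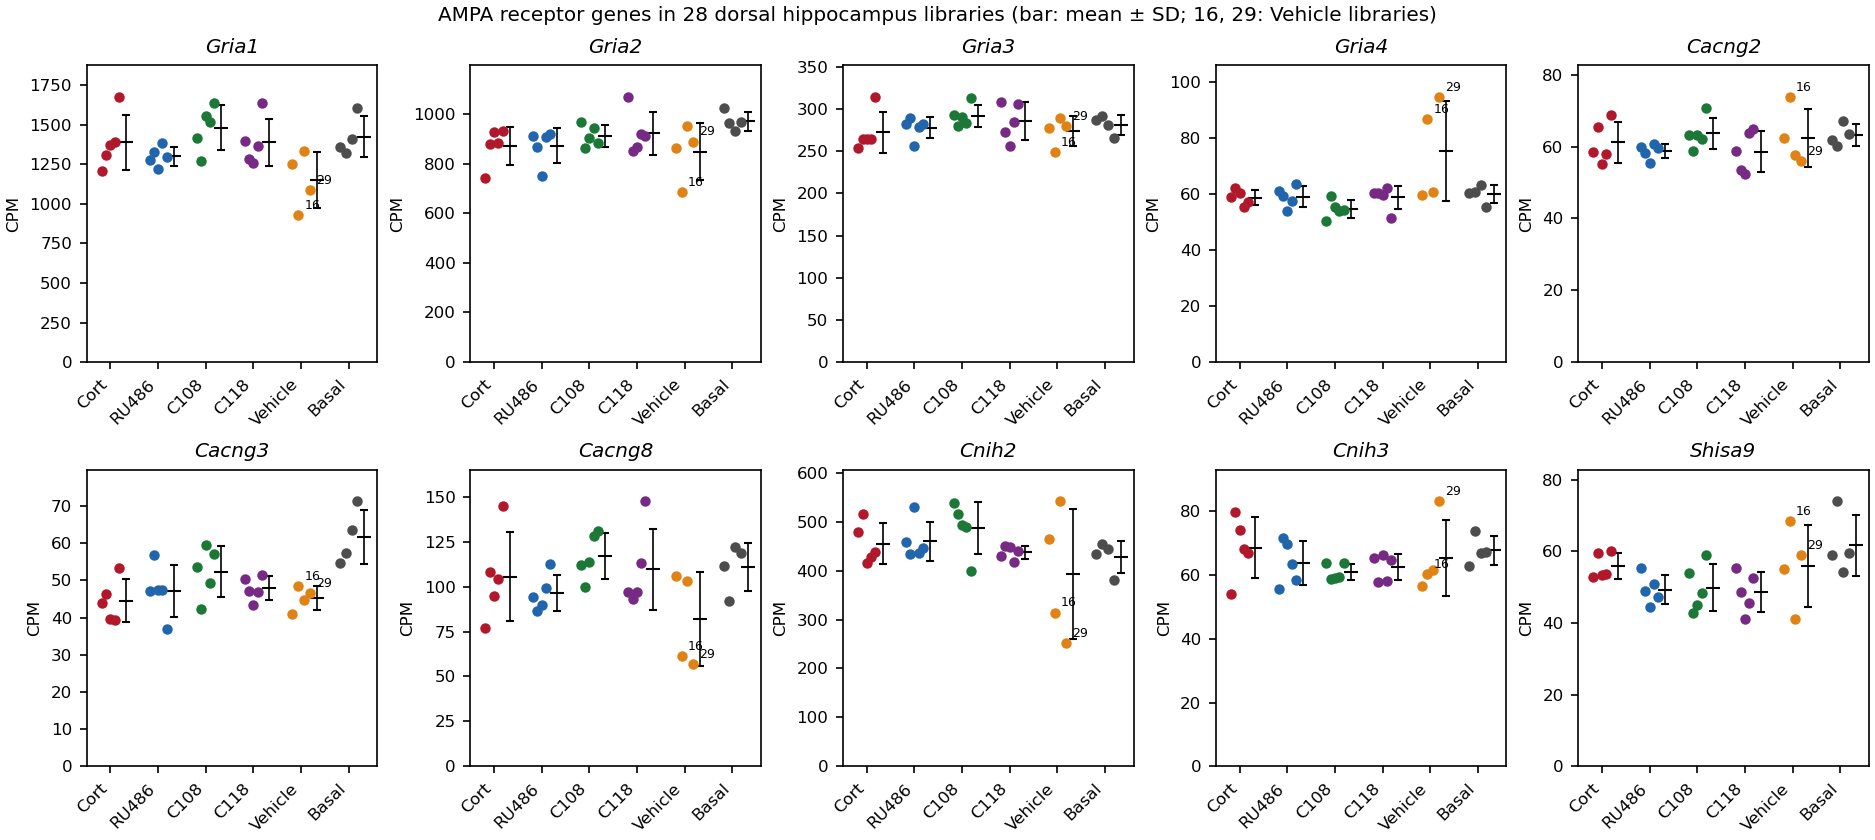
Level of each of the 10 genes in CPM (vertical axes from 0) in each of 28 libraries, by group. Each point is a library, the bar beside each group is the mean with its SD, and the numbers 16 and 29 mark the Vehicle libraries that stood apart. Gria4 is high and Cnih2 and Cacng8 are low in both of these, and all 4 Basal libraries have Cacng3 at 54.7 CPM or above.

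Of the summed subunit transcripts per kilobase, Gria1 made up 70.0% ± 2.26, Gria2 18.1% ± 1.26, Gria3 8.92% ± 0.62 and Gria4 3.05% ± 0.78 (SD, n = 28). With the longest transcript as length, the shares were 61.6% for Gria1, 21.9% for Gria2, 13.6% for Gria3 and 2.85% for Gria4. The order of the 4 shares was therefore the same by either length. Group means of the Gria1 share were 71.1% in Cort, 69.7% in RU486, 71.5% in C108, 70.1% in C118, 66.7% in Vehicle and 70.0% in Basal. The Gria4 share was 5.80% in Vehicle 16 and 5.34% in Vehicle 29, and at most 3.14% in Vehicle 3 and Vehicle 23. In the other 5 groups the means of the Gria4 share lay between 2.55% and 3.03%.

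**Figure D2:**
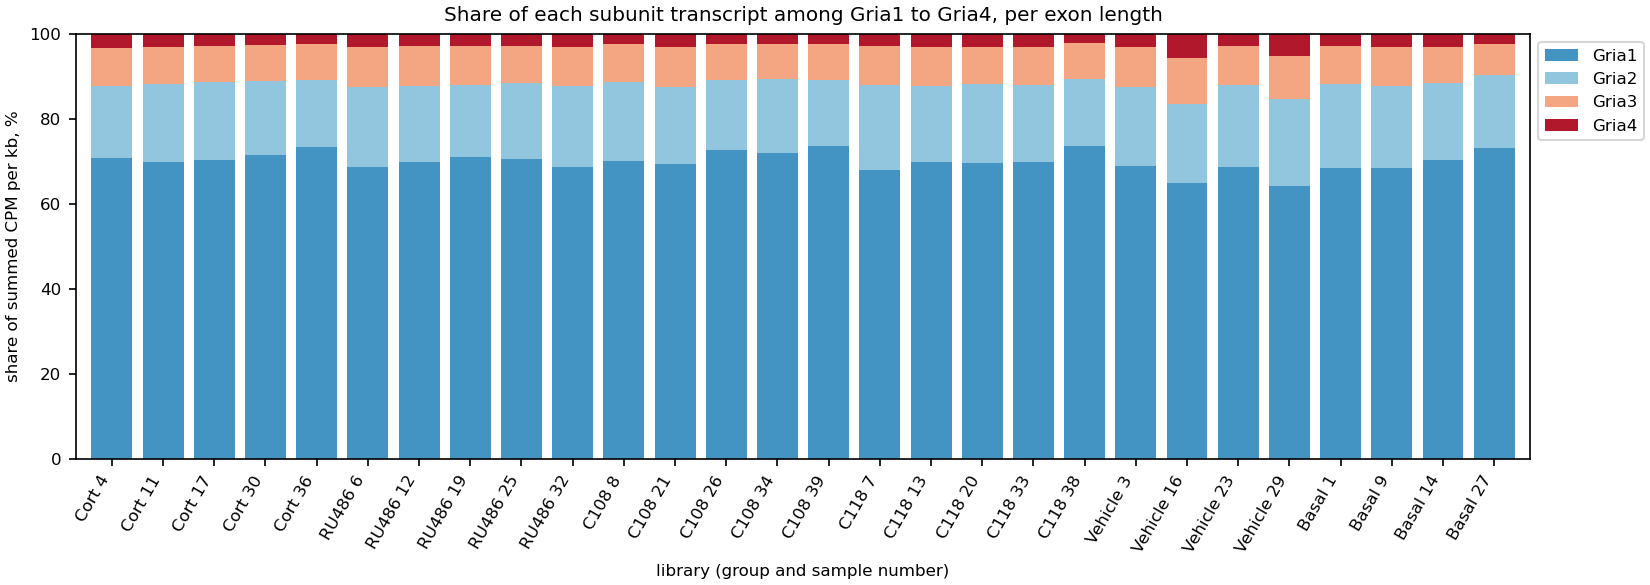
Share of Gria1, Gria2, Gria3 and Gria4 in their summed CPM per kilobase of exon (vertical axis, %), with a stacked bar for each of 28 libraries (horizontal axis, group and sample number). Gria1 takes 64.2% to 73.6% in every library, and the Gria4 segment is widest in Vehicle 16 and Vehicle 29, at 5.80% and 5.34%.

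Gria1, Gria2 and Gria3 did not pass the edgeR test in any of 15 comparisons between groups. Gria1 averaged 1390 ± 175 CPM in Cort, 1301 ± 61.8 in RU486, 1480 ± 142 in C108 and 1389 ± 149 in C118 (SD, n = 5 each). In Vehicle it averaged 1151 ± 179 CPM and in Basal 1426 ± 127 (SD, n = 4 each). The Vehicle mean was the lowest of the 6, with 930 CPM in Vehicle 16, 1089 in Vehicle 29, 1250 in Vehicle 3 and 1334 in Vehicle 23. The log2 difference of Gria1 was −0.31 in Vehicle against Basal (edgeR adjusted p = 0.0983) and 0.36 in C108 against Vehicle (edgeR adjusted p = 0.0981). DESeq2 called Gria1 in C108 against Vehicle (adjusted p = 0.0323). Without Vehicle 23, edgeR called it there (log2 0.44, adjusted p = 0.0199) and in Vehicle against Basal (log2 −0.39, adjusted p = 0.0472). Of all tested genes, 656 and 635 passed in these comparisons without Vehicle 23, against 36 and 688 with all libraries. Without Vehicle 16 and 29 together, Gria1 was called in neither, and 0 and 378 tested genes passed. Over the alternatives run, its log2 difference lay between 0.20 and 0.44 in C108 against Vehicle. In Vehicle against Basal it lay between −0.39 and −0.14. Gria2 group means ran between 847 CPM in Vehicle and 971 CPM in Basal. All RU486 libraries, at most 921 CPM, lay below the lowest Basal library at 930 CPM (edgeR adjusted p = 0.296). Such a gap with Basal above RU486 held for 1015 of 16735 tested genes. Gria3 was the steadiest member, with group means between 272 CPM in Cort and 292 CPM in C108 and a coefficient of variation of 6.21% over 28 libraries.

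Gria4 was lower in C108 than in Vehicle, and Vehicle was the group in which it was high. In C108 it had 50.2, 59.3, 55.3, 53.8 and 54.4 CPM, against 59.4, 86.6, 60.7 and 94.5 CPM in Vehicle libraries 3, 16, 23 and 29. No C108 library reached the lowest Vehicle library, and the high Vehicle values were those of libraries 16 and 29. The log2 fold change was −0.46 ± 0.10 (SE), with a 95% interval of −0.66 to −0.26 (edgeR adjusted p = 0.0384). Gria4 was thus 1 of 10 members called in C108 against Vehicle, where 0.161% of all tested genes were called lower and 0.215% in either direction. Groups did not overlap and C108 was lower for 1.32% of tested genes. Without Vehicle 16 and 29 the log2 fold change was −0.14 (edgeR adjusted p = 0.835). The call was also lost without Vehicle 16 alone (0.313), without Vehicle 29 alone (0.133), without C108 8, 26, 34 or 39 (0.0815 to 0.115), with limma-voom (0.078) and with these groups fitted alone (0.305). Few or no tested genes passed in these alternatives, against 36 in the main fit. The number was 9 without Vehicle 29, 1 without C108 26 and 0 in each of the others. It was also 0 without Vehicle 16 and 29 together.

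The other ligands gave Gria4 levels close to those of C108. Gria4 averaged 58.6 ± 2.66 CPM in Cort, 59.0 ± 3.68 in RU486, 54.6 ± 3.28 in C108 and 58.7 ± 4.26 in C118 (SD, n = 5 each), against 75.3 ± 17.9 in Vehicle and 59.9 ± 3.32 in Basal (SD, n = 4 each). Against Vehicle, the log2 difference of Gria4 was −0.36 in Cort (edgeR adjusted p = 0.159), −0.35 in RU486 (0.246) and −0.36 in C118 (0.207). These comparisons all share the 4 Vehicle libraries. Without Vehicle 16 and 29 the log2 difference was −0.04 in Cort (edgeR adjusted p = 0.995), −0.03 in RU486 (0.9998) and −0.03 in C118 (0.9998). Vehicle against Basal gave a log2 difference of 0.33 for Gria4 (edgeR adjusted p = 0.0644), and 0.00 without Vehicle 16 and 29 (0.995). That comparison passed with DESeq2 (adjusted p = 0.0389) and with thalamus and neocortex marker scores as covariates (edgeR adjusted p = 0.0135). Without Vehicle 23, Gria4 was called in all 4 ligand groups against Vehicle and in Vehicle against Basal. Without Vehicle 3 it was also called in all 5. Against Vehicle, calls over all tested genes rose as well. Without Vehicle 23, 170 genes passed in Cort, 207 in RU486, 656 in C108 and 214 in C118. Without Vehicle 3 these were 40, 22, 119 and 24, and with all libraries 1, 0, 36 and 0. In Vehicle against Basal, 635 passed without Vehicle 23 and 729 without Vehicle 3, against 688 with all libraries.

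Neocortex markers were high in the same Vehicle libraries, and thalamus markers in one of them. All 16 neocortex markers and all 15 thalamus markers were detected in every group, and none was at 0. Neocortex scores reached 0.56 in library 16 and 0.36 in library 29, and were −0.09 in Vehicle 3 and −0.17 in Vehicle 23. Thalamus scores were 2.18 in Vehicle 16 and −0.30 in Vehicle 29, against 1.14 in Vehicle 3, where Gria4 was low, and −0.40 in Vehicle 23. The summed neocortex markers ranged from 500.2 to 565 CPM in C108, against 499 to 772 CPM in Vehicle. The summed thalamus markers ranged from 184 to 222 CPM in C108, against 221 to 894 CPM in Vehicle. With both tissue scores added to the fit as covariates, Gria4 had a log2 difference of −0.33 in C108 against Vehicle (edgeR adjusted p = 0.795). In that fit 0 of all tested genes passed in this comparison. Across the 28 libraries, which share the same normalization, Gria4 had r = 0.594 with the neocortex score and 0.362 with the thalamus score. In the 26 libraries other than Vehicle 16 and 29, these were 0.133 and 0.165. Other markers kept a relation with Gria4 there. With the astrocyte score r was 0.477 over the 28 libraries and 0.526 over the 26. With the pan-neuronal score r was −0.25 and −0.435. Basal libraries had neocortex scores of 0.21 to 0.33 with Gria4 at 55.2 to 63.1 CPM. The part of these tissues in the Gria4 difference was not tested.

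**Figure D3:**
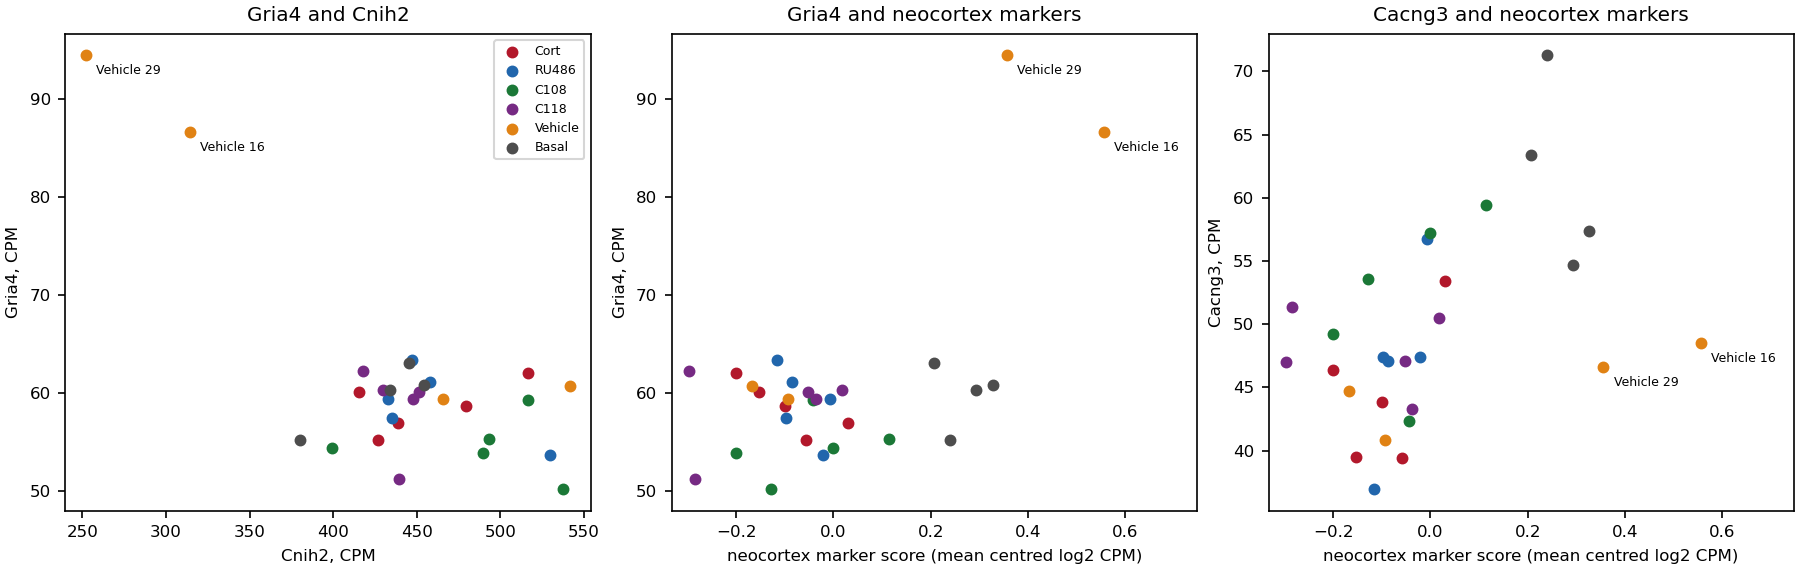
Level of Gria4 (CPM, left and middle) against the level of Cnih2 (CPM) and against the neocortex marker score, and level of Cacng3 (CPM, right) against the same score, with a point for each of 28 libraries coloured by group. Vehicle 16 and Vehicle 29 lie alone at high Gria4 and low Cnih2, and the 4 Basal libraries lie at neocortex scores of 0.21 to 0.33 with Cacng3 at 54.7 to 71.3 CPM.

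Cacng3, a TARP of forebrain excitatory neurons, was lower in 4 of the 5 conditioned groups than in Basal. Its libraries had 43.9, 46.4, 39.5, 39.4 and 53.4 CPM in Cort, and 40.8, 48.5, 44.7 and 46.6 CPM in Vehicle, against 54.7, 57.4, 63.4 and 71.3 CPM in Basal. In RU486 they had 47.1, 56.7, 47.4, 47.4 and 37.0 CPM, in C108 53.6, 42.3, 59.4, 49.3 and 57.2, and in C118 50.5, 47.1, 43.3, 47.0 and 51.4. All libraries of Cort, C118 and Vehicle lay below the lowest Basal library, while RU486 and C108 overlapped with Basal. Such a gap with Basal above held for 5.35% of tested genes in Cort, 4.96% in C118 and 5.76% in Vehicle.

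The log2 fold change of Cacng3 against Basal was −0.47 ± 0.11 in Cort (SE, edgeR adjusted p = 0.00587), −0.39 ± 0.11 in RU486 (0.0324), −0.37 ± 0.11 in C118 (0.0497) and −0.45 ± 0.11 in Vehicle (0.0198). In C108 it was −0.24 ± 0.11 and did not pass (edgeR adjusted p = 0.193). C108 was not shown to differ from the other conditioned groups, since its direct comparisons gave log2 differences of −0.23 for Cort against C108 (edgeR adjusted p = 0.961), 0.15 against RU486 (0.841), 0.13 against C118 (0.9997) and 0.21 against Vehicle (0.306). All 5 comparisons share the 4 Basal libraries. Cacng3 was the 1 member of 10 called in each of Cort, RU486, C118 and Vehicle against Basal. Over all tested genes, 3.43% were called lower in Cort, 2.84% in RU486, 2.13% in C118 and 2.47% in Vehicle. In either direction the shares were 6.27%, 5.45%, 3.87% and 4.11% for the same groups, and beside them a count of 1 in 10 is near the background. At an unadjusted p under 0.05 edgeR had 5 of the 10 members in Vehicle against Basal, where 3024 of 16735 tested genes were under it. The 5 were Gria1, Gria2, Gria4, Cacng3 and Cacng8. In Cort, RU486 and C118 against Basal edgeR had 1, 2 and 2 members, where 3261, 3689 and 3164 tested genes were under it. In C108 against Basal, where 6.04% of tested genes passed, 0 members passed with edgeR, DESeq2 or limma-voom, and 2 members had an unadjusted p under 0.05, as did 21.8% of all tested genes.

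The calls of Cacng3 in RU486, C118 and Vehicle lay near the threshold and were lost without single libraries, while the fold change kept its direction. Over the alternatives run, the log2 fold change lay between −0.46 and −0.29 in RU486, −0.42 and −0.25 in C118, and −0.53 and −0.37 in Vehicle. The call in C118 was lost without Basal 1 (adjusted p = 0.0637), 14 (0.124) or 27 (0.178) and without any of the 5 C118 libraries (0.0565 to 0.103). The call in RU486 was lost without Basal 14 (0.0843), Basal 27 (0.124), RU486 19 (0.0632), RU486 25 (0.0568) or RU486 32 (0.0865). The call in Vehicle was lost without Basal 14 (0.0597), Basal 27 (0.103) or Vehicle 3 (0.0598), and without Vehicle 16 and 29 together (adjusted p = 0.0506, log2 difference −0.53).

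Neocortex markers were also higher in Basal. The mean neocortex score was −0.10 in Cort, −0.07 in RU486, −0.05 in C108, −0.13 in C118 and 0.16 in Vehicle, against 0.27 ± 0.05 in Basal (SD, n = 4). The summed level of the 16 markers ranged from 501 to 592 CPM in Cort and 479 to 538 in RU486. It was 500.2 to 565 CPM in C108, 462 to 574 in C118 and 499 to 772 in Vehicle, against 570 to 679 in Basal. Of these markers, 3 were called lower in Cort than in Basal, 3 in RU486, 2 in C108 and 3 in C118, and in Vehicle 1 was called lower and 1 higher. With both tissue scores added as covariates, Cacng3 had log2 differences against Basal of −0.32 in Cort (edgeR adjusted p = 0.24), −0.29 in RU486 (0.231), −0.25 in C118 (0.465) and −0.38 in Vehicle (0.0667). In that fit 351, 269, 77 and 911 of all tested genes passed for the same groups, against 1049, 912, 648 and 688 without the covariates. Basal neocortex scores (0.21 to 0.33) all lay above the highest in Cort (0.03), RU486 (−0.01) and C118 (0.02). The fit can therefore tell the score from the group only in part there. Across the 28 libraries, which share the same normalization, Cacng3 and the neocortex score had r = 0.44, and r = 0.617 in the 26 libraries other than Vehicle 16 and 29. The part of neocortical tissue in the Cacng3 difference was not tested.

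Cacng8 and Cacng2, the other TARPs among the members, did not pass in any comparison. Of the 10 members, Cacng8 had the highest coefficient of variation over the 28 libraries. It averaged 106 ± 24.9 CPM in Cort, 96.5 ± 10.2 in RU486, 117 ± 12.8 in C108 and 110 ± 22.6 in C118 (SD, n = 5 each), against 81.8 ± 26.3 in Vehicle and 111 ± 13.3 in Basal (SD, n = 4 each). The low Vehicle mean came with 61.5 CPM in Vehicle 16 and 56.9 CPM in Vehicle 29, whereas Vehicle 3 and Vehicle 23 had 106 and 103 CPM. The log2 difference of Cacng8 was 0.52 in C108 against Vehicle (edgeR adjusted p = 0.153) and −0.44 in Vehicle against Basal (0.19). With both tissue scores as covariates it passed in Vehicle against Basal (log2 −0.57, edgeR adjusted p = 0.0429), where 911 of all tested genes passed. Without Vehicle 16 and 29 together it did not pass there. Over the alternatives run, its log2 difference in Vehicle against Basal lay between −0.59 and −0.09. Cacng2 had group means between 58.6 CPM in C118 and 63.7 CPM in C108, and its groups overlapped in all 15 comparisons. An antisense gene, A730060N03Rik, shares 323 exon bases with Cacng2, or 5.86% of them. Libraries were stranded, but no source used here says whether counting used the strand, so reads of the overlap cannot be assigned. Smaller overlaps are those of Cnih2 with Yif1a on the other strand (14 bases) and of Gria2, Gria3, Gria4 and Cacng8 with miRNA genes on the same strand (111, 85, 19 and 91 bases).

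The cornichons Cnih2 and Cnih3, which help to export AMPA receptors and slow their deactivation, also did not pass in any of the 15 comparisons. Cnih2 averaged 455 ± 41.7 CPM in Cort, 461 ± 39.9 in RU486, 487 ± 52.9 in C108 and 437 ± 13.6 in C118 (SD, n = 5 each), against 393 ± 134 in Vehicle and 428 ± 33.1 in Basal (SD, n = 4 each). Vehicle held both the highest Cnih2 library, Vehicle 23 with 542 CPM, and the lowest, Vehicle 29 with 252 CPM. Cnih3 was highest in Vehicle 29, at 83.1 CPM, with group means between 60.9 CPM in C108 and 68.6 CPM in Cort. The log2 ratio of Cnih3 to Cnih2 counts was −1.60 in Vehicle 29, against a mean of −2.78 over all 28.

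Shisa9, whose product CKAMP44 is known from dentate granule cells, where it slows recovery from desensitisation, did not pass in any comparison. It averaged 55.8 ± 3.62 CPM in Cort, 49.3 ± 4.04 in RU486, 49.9 ± 6.64 in C108 and 48.6 ± 5.66 in C118 (SD, n = 5 each), against 55.9 ± 11.4 in Vehicle and 61.6 ± 8.53 in Basal (SD, n = 4 each). Against Basal, Shisa9 had log2 differences of −0.14 in Cort (edgeR adjusted p = 0.53), −0.32 in RU486 (0.0939), −0.31 in C108 (0.111), −0.34 in C118 (0.0901) and −0.14 in Vehicle (0.597).

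Against Vehicle, 0 members were called by edgeR in Cort, RU486 or C118, where 0.00598%, 0% and 0% of tested genes passed. DESeq2 and limma-voom also called 0 members there. At an unadjusted p under 0.05 edgeR had 3 members in Cort, 1 in RU486 and 3 in C118, and Gria4 was among them in each. Of all tested genes 11.6% were under it in Cort, 8.16% in RU486 and 8.01% in C118. In C108 against Vehicle, where Gria4 was called, 4 members had an unadjusted p under 0.05, as did 17.4% of all genes, and DESeq2 called Gria1 beside Gria4. The median log2 difference of the 10 members against Vehicle was 0.02 in Cort, 0.03 in RU486, 0.10 in C108 and 0.07 in C118, and the median over all tested genes lay between 0.00 and 0.01 in each.

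The ligands were also set against each other in 6 direct comparisons, without knowledge of whether their doses match. In none of the 6 was a member called by edgeR, DESeq2 or limma-voom. Over all tested genes, 0.0538% passed in Cort against RU486 and 0% in each of the other 5. The lone member with an unadjusted p under 0.05 was Cacng3 in Cort against C108, where 4.88% of tested genes were under it. In the other 5 comparisons 0 members were under it, and the shares of tested genes were 5.34% in Cort against RU486, 4.26% in Cort against C118, 5.74% in C108 against RU486, 1.83% in C118 against RU486 and 2.4% in C108 against C118. For the code-named ligands C108 against C118, the log2 difference of the members ran between −0.10 for Gria4, with a 95% interval of −0.29 to 0.09, and 0.16 for Cnih2, with an interval of −0.10 to 0.42. In Cort against RU486, the log2 difference was 0.10 for Gria1 (95% interval −0.10 to 0.29), 0.00 for Gria2 (−0.17 to 0.17) and 0.13 for Cacng8 (−0.21 to 0.47). The narrowest intervals between ligands were those of Gria3, such as −0.10 to 0.16 in C108 against C118. A p that misses the threshold does not show that the ligands act alike on these genes.

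**Figure D4:**
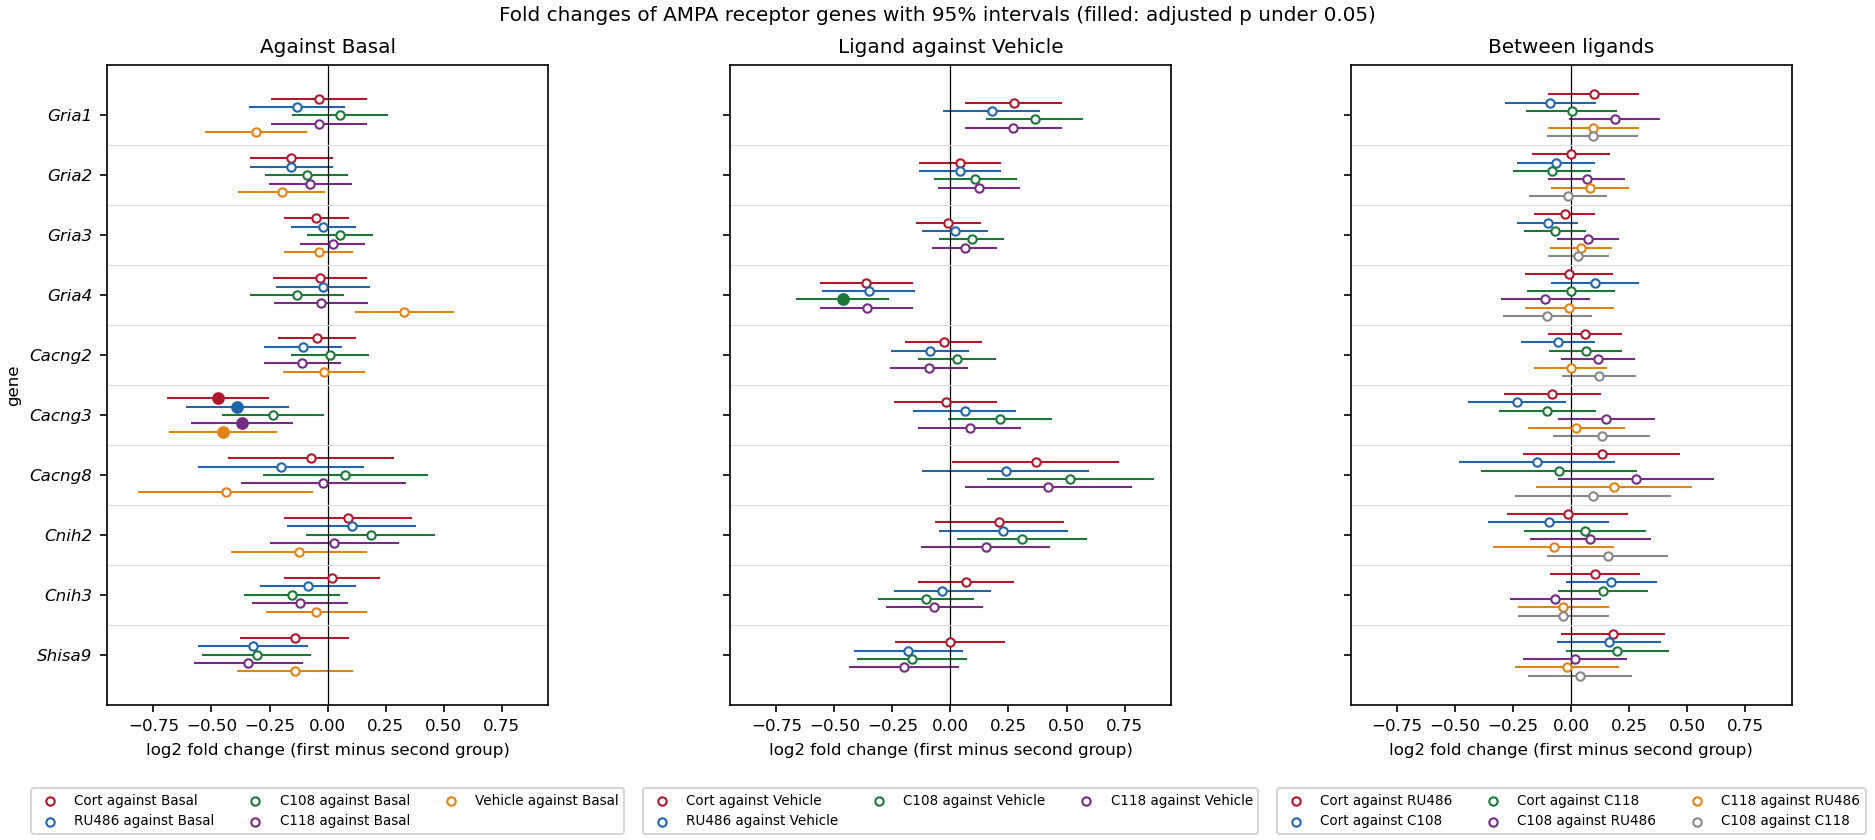
Log2 fold change of each of the 10 genes (horizontal axes, zero line in black) with its 95% interval, in the conditioned groups against Basal (left), each ligand against Vehicle (middle) and ligands against each other (right). Filled points passed at an edgeR adjusted p under 0.05, which are Cacng3 in 4 comparisons against Basal and Gria4 in C108 against Vehicle.

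A wider circle of 28 further genes for proteins that bind AMPA receptors, of which 27 were tested, gave edgeR calls against Basal and none in the other comparisons. All tested genes showed the same split, with 3.87% to 6.27% called against Basal and 0% to 0.215% in the other comparisons, so it is not a result about these genes. Of the 27, 3 were called in Cort, 3 in RU486, 2 in C108, 3 in C118 and 1 in Vehicle against Basal. Gsg1l, an auxiliary subunit of the claudin family, was lower than in Basal in Cort, RU486, C108 and C118. Its mean was 24.2 CPM in Cort, 22.6 in RU486, 25.8 in C108 and 23.8 in C118, against 35.4 ± 3.70 in Basal (SD, n = 4), and the groups did not overlap. Its log2 fold changes were −0.55 in Cort (edgeR adjusted p = 0.00547), −0.65 in RU486 (0.00228), −0.46 in C108 (0.0256) and −0.57 in C118 (0.00751).

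Lrrtm2, a synaptic adhesion protein that holds AMPA receptors at the synapse, was lower than in Basal in the same 4 groups. It averaged 49.5 CPM in Cort, 51.4 in RU486, 48.7 in C108 and 50.5 in C118, against 75.8 ± 12.7 in Basal (SD, n = 4). Its log2 fold changes were −0.61 in Cort (edgeR adjusted p = 0.00173), −0.56 in RU486 (0.00728), −0.64 in C108 (0.00255) and −0.59 in C118 (0.00568). In Vehicle the log2 difference of Lrrtm2 was −0.43 and did not pass (edgeR adjusted p = 0.0571), and Vehicle was not shown to differ from the ligand groups. Its relative Lrrtm1 was lower in RU486 (log2 −0.43, edgeR adjusted p = 0.00821), C118 (−0.39, 0.018) and Vehicle (−0.48, 0.00429) than in Basal. Nptx2, a secreted pentraxin that clusters AMPA receptors, was the only gene of these lists called higher, with 36.5 ± 6.87 CPM in Cort (SD, n = 5) against 24.8 ± 1.34 in Basal (SD, n = 4; log2 0.56, edgeR adjusted p = 0.0462). All these comparisons share the Basal libraries.

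With both tissue scores added as covariates, Gsg1l was called in none of these 4 groups, with adjusted p between 0.062 in RU486 and 0.456 in C108. Calls over all tested genes fell too, from 1049 to 351 in Cort and from 912 to 269 in RU486. In C108 they fell from 1010 to 140 and in C118 from 648 to 77. The call of Gsg1l in C108 was also lost without Basal 14 (0.0734), Basal 27 (0.0744), C108 21 (0.053), C108 26 (0.0638) or C108 34 (0.0516). Under the same covariates Lrrtm2 remained called in Cort (adjusted p = 0.0305) and had 0.0664 in RU486, 0.0679 in C108 and 0.148 in C118, with log2 differences of −0.61 in Cort, −0.50 in RU486, −0.53 in C108 and −0.49 in C118. Without Basal 14, Lrrtm2 in RU486 had 0.0523 and Lrrtm1 in RU486 had 0.0528. Lrrtm1 in C118 was lost without Basal 1, 14 or 27 or C118 13 (0.0548 to 0.0962), and in Vehicle without Vehicle 16 and 29 together (0.058). The call of Nptx2 was lost without any 1 of the 4 Basal libraries and without Cort 4, 30 or 36 (0.057 to 0.135).

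Of 36 genes for AMPA receptor trafficking and scaffold proteins, Akap5 and Mpp2 were called. That was 1 of 36 in each of Cort, RU486 and Vehicle against Basal, where 6.27%, 5.45% and 4.11% of all tested genes were called, so the list did not exceed the background. Akap5, which anchors kinases and calcineurin beside the receptor, averaged 58.1 ± 11.1 CPM in Cort and 55.4 ± 5.20 in RU486 (SD, n = 5 each), against 80.8 ± 11.7 in Basal (SD, n = 4). Its log2 fold change was −0.48 in Cort (edgeR adjusted p = 0.0141) and −0.55 in RU486 (0.00832). It did not pass in C108 (−0.29, adjusted p = 0.165), C118 (−0.40, 0.0622) or Vehicle (−0.42, 0.0591) against Basal. Mpp2, a postsynaptic scaffold, had 126 ± 6.52 CPM in Vehicle against 164 ± 9.18 in Basal (SD, n = 4 each; log2 −0.37, edgeR adjusted p = 0.0118), and the groups did not overlap. Akap5 in Cort was lost without Basal 27 (0.0753), and both Akap5 calls were lost with the covariates (adjusted p = 0.274 with log2 −0.32 in Cort, 0.0661 with log2 −0.48 in RU486). Of all tested genes, 351 and 269 passed there with the covariates, against 1049 and 912 without them. Without Vehicle 16 and 29, Mpp2 had an adjusted p of 0.143 with a log2 difference of −0.33. Against Vehicle and between ligands, edgeR and limma-voom called 0 genes of either list, while DESeq2 called Abhd6 and Mpp2 in C108 against Vehicle and 0 genes elsewhere. At an unadjusted p under 0.05 edgeR had, of the 27 and the 36 genes, 8 and 9 in Cort, 6 and 6 in RU486, 13 and 15 in C108 and 9 and 5 in C118 against Vehicle, while 11.6% of all tested genes were under it in Cort, 8.16% in RU486, 17.4% in C108 and 8.01% in C118. Between ligands it had at most 2 of the 27 and 5 of the 36, where the shares of all tested genes were 1.83% to 5.74%.

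In Cort against Basal the median log2 difference was −0.05 for the 10 members, −0.02 for the 27 further binding proteins and −0.01 for the 36 trafficking genes, against 0.01 for all tested genes. In Vehicle against Basal it was −0.13, −0.11 and −0.06 in the same order of lists, against 0.00 for all tested genes, and 9 of 10 members had a negative value.

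**Figure D5:**
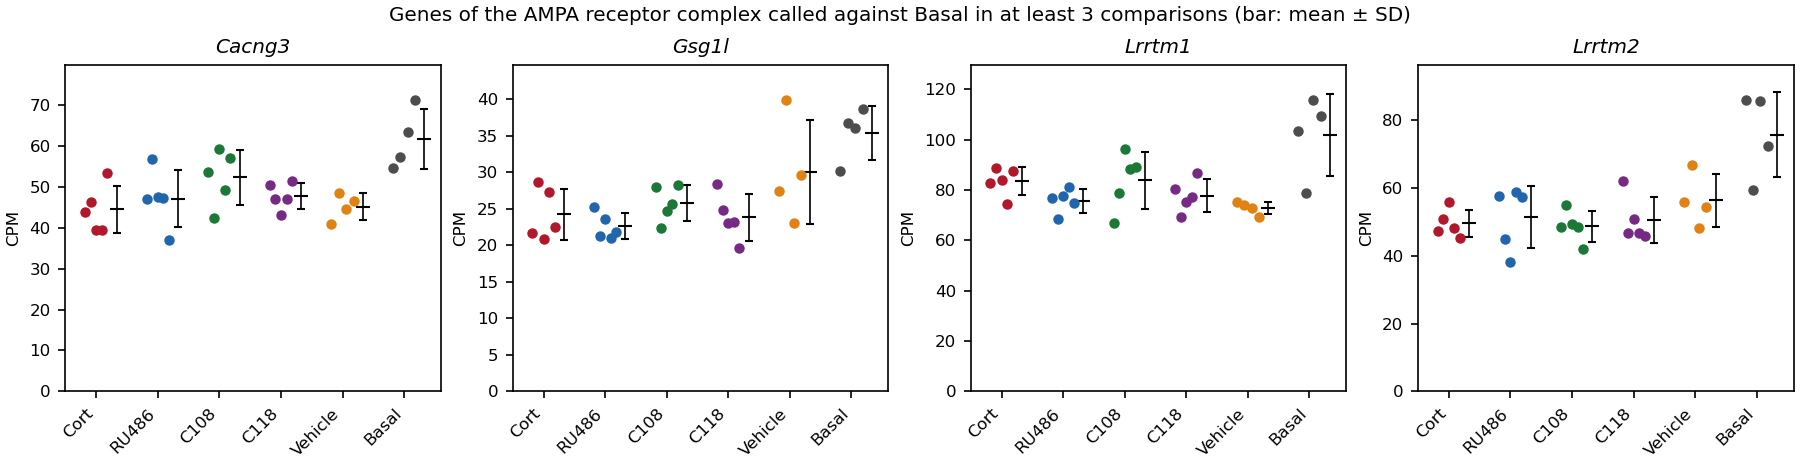
Level (CPM, vertical axes from 0) of the 4 AMPA receptor genes called against Basal in at least 3 comparisons, Cacng3, Gsg1l, Lrrtm1 and Lrrtm2, with a point for each of 28 libraries and the mean with its SD beside each group. The Basal means of 61.7, 35.4, 102 and 75.8 CPM are the highest of the 6 groups in each panel, and 1 Vehicle library reaches 39.9 CPM for Gsg1l.

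Members varied together in part. Over the 28 libraries, Gria1 and Cacng8 had a Pearson r of 0.887 in log2 CPM, and 0.83 in the 26 libraries other than Vehicle 16 and 29. Both also followed marker scores in the 26. With the pan-neuronal score r was 0.769 for Gria1 and 0.843 for Cacng8, and with the astrocyte score −0.791 and −0.672. Gria4 and Cnih2 had r = −0.76 over 28 libraries and −0.121 over the 26, so that this relation rested on the pair of Vehicle libraries. Gria1 and Gria4 had r = −0.746 over 28 and −0.524 over 26. Cacng2 and Shisa9 had r = 0.516 over 28 and 0.481 over 26. The points share library preparation, depth and tissue makeup, and these values are descriptions.

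The genes whose pattern over the 28 libraries was most like each member were found by the same measure. For Gria1 they were Iqgap2 (r = 0.95), Rasgrf1 (0.925) and Wscd2 (0.92), and for Cacng8 they were the muscarinic receptor gene Chrm1 (0.946), Galnt17 (0.936) and Smpd3 (0.935). For Gria2 they were Setbp1 (0.836), the glutamate receptor gene Grm5 (0.825) and Cep68 (0.815), and for Gria3 Rock2 (0.916), Zc3h12b (0.89) and Foxj3 (0.882). Gria4 was followed most closely by Unc13c (0.873), Dpp10 (0.863) and Fnbp1l (0.813). The list of Cnih2 held the calmodulin gene Calm3 (0.926), 2700081O15Rik (0.909) and Fbxl16 (0.907), and that of Cnih3 B3galnt1 (0.774), Akain1 (0.715) and Mtif2 (0.664). Cacng2 was closest to Cntnap1 (0.854), Rab6b (0.852) and the potassium channel gene Kcnc1 (0.852). Cacng3 was closest to Pknox2 (0.895), St8sia5 (0.794) and Ngef (0.793), and Shisa9 to the kainate receptor gene Grik3 (0.872), the potassium channel gene Kcnd3 (0.846) and Plekha6 (0.83). After group means were subtracted, r for Cacng3 and St8sia5 was 0.573, and r for Cacng3 and Pknox2 was 0.816.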

How the data were processed

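RNA of dorsal hippocampus was sequenced as stranded, paired-end mRNA libraries, per the labels' protocols. The deposited values are raw gene counts made by the authors with HTSeq 0.6.1 on mm10, per the submitters' processing notes, which also name FastQC and MultiQC. Not given in the sources used here are aligner, annotation and the strand setting of the counting. The 5 summary rows that name no gene held 12.6% to 19.7% of each column and were left out. Every pair of libraries of a group differed beyond counting noise (lowest chi-square per degree of freedom, 5.55).

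Counts of 28 libraries were fitted together with edgeR 4.0.16 in R 4.3.3 (filterByExpr at 10 counts and a total of 15, TMM scaling, robust quasi-likelihood test, 22 residual degrees of freedom). Two-sided p-values of 15 comparisons were adjusted by Benjamini-Hochberg over 16735 genes, with a threshold of 0.05. The script was tested on simulated counts. Depth was 16.2 M to 20.3 M counts (M, 1e+06) and the common biological coefficient of variation was 0.133, so for these members spread among libraries outweighed counting error. Log2 CPM used a prior count of 2, and lengths are exon bases of GENCODE M21. DESeq2 1.42.0, limma-voom (limma 3.58.1), other scaling and filters, marker scores as covariates and left-out libraries were alternatives. The members, gene lists and marker lists were chosen with earlier results of these data known. All 10 members are named, with up to 4 called genes of each related list by smallest p and the 3 genes most correlated with each member. The promoter window of 1 member is not reported here.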

Additional observations from a re-analysis of the deposited data

Results flagged for a closer look

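In groups of 4 or 5 libraries, the highest or lowest library was called far from the rest when its gap to the nearest library, divided by the range of the group, exceeded Dixon's 95% critical value. Of 60 groups checked (10 genes in 6 groups), 4 were flagged, and chance flags about 1 in 20. Gria2 had 743 CPM in Cort 4, with the nearest Cort library at 878 CPM. Gria3 had 314 CPM in Cort 36, with the nearest at 265 CPM. Gria4 had 51.3 CPM in C118 38, with the nearest at 59.4 CPM. Cnih2 had 530 CPM in RU486 19, with the nearest at 458 CPM. None of the 4 was in Vehicle, where libraries 16 and 29 lie at the same end for Gria4, Cacng8 and Cnih2.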

How the results depend on the processing

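The count of members called in C118 against Basal was 1 and became 0 with RLE scaling, without a filter on low counts, with limma-voom and with both tissue scores (thalamus, neocortex) as covariates. Over all tested genes, 648 passed there in the main fit, and 656, 400, 682 and 77 under these settings in the same order. The covariates also gave 0 in Cort against Basal, 0 in RU486 against Basal, 0 in C108 against Vehicle and 2 in Vehicle against Basal (Gria4 and Cacng8). Calls over all tested genes moved too. With the covariates 351, 269, 0 and 911 genes passed in these comparisons, against 1049, 912, 36 and 688 in the main fit. In C108 against Vehicle the count of members was 0 with limma-voom, 0 with the 2 groups fitted alone and 2 with DESeq2, where 0, 0 and 295 tested genes passed. In Vehicle against Basal it was 2 with DESeq2, where 1002 tested genes passed. Without Vehicle 16 and 29 it was 0 in Vehicle against Basal and 0 in C108 against Vehicle, where 378 and 0 tested genes passed. Leaving out each library in turn gave 0 to 3 members in Vehicle against Basal, 0 to 4 in C108 against Vehicle, 0 to 1 in Cort, RU486 and C118 against Vehicle, 0 to 1 in RU486 and C118 against Basal, 1 in Cort against Basal, and 0 in C108 against Basal and in all 6 comparisons between ligands. The count of 4 came without Vehicle 23, where C108 against Vehicle called Gria1, Gria4, Cacng8 and Cnih2. Over all tested genes, 656 passed there, against 36 with all libraries. The cause of these changes was not tested.

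Of the members' fold changes under these alternatives, 34 lost a call, 16 gained one and 2450 kept their side of the threshold and any called direction. None of the called fold changes changed sign. Levels moved by less than 1 SD under other scaling in all 120 cases. No paired analysis was possible because every sample number occurs only once and no number links libraries of different groups. With 4 or 5 libraries per group, precision was lowest for Cacng8, whose 95% interval in C108 against C118 ran between −0.24 and 0.43 on the log2 scale. Doses, times and the origin of libraries from separate mice are unknown, and 2 of 4 Vehicle libraries stood apart.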
